A study of Drosophila melanogaster with 18 samples.

Results

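The change of the young adult fly head was followed here as the difference between wild-type Drosophila melanogaster males at day 15 after eclosion and wild-type males at day 3. Polyadenylated RNA of whole heads had been sequenced in 3 libraries at each age. All genes with a normalized count of at least 10 in at least 3 of the 12 male libraries were taken, which kept 8921 of 10884 genes. The series held 18 libraries. Beside the day 15 and day 3 males, there were wild-type males at days 30 and 45, foxo mutant females at day 3 and wild-type females at day 3, with 3 libraries in each of the 6 groups. The mutants had the genotype foxo c431/c431, and all wild-type flies were of control line 5905, which carries the allele w1118. That allele inactivates the gene white and with it most eye pigment. Flies were kept at 25 °C, collected on the day they eclosed and moved to new vials every other day. The study sought foxo-dependent genes and their course with age, and the step to day 15 is the earliest one it offers. Nothing in the labels says that the 3 libraries of an age came from separate cultures or collections, so p-values measure only the spread between these libraries.

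A fly leaves the pupal case before its adult body is finished. In the first days of adult life the cuticle is still being laid down and hardened, and the nervous system and behaviour are still maturing. The head is a mixture of brain, compound eyes, antennae, mouthpart muscles, fat body, blood cells and the cuticle-forming epidermis, and a whole-head library measures all of them together.

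The 6 libraries held 2999956 to 4102364 reads, so that 1 read was worth 0.835 to 1.22 normalized counts. The first principal component of the 6 libraries took 49.1% of the variance and separated the ages. Day 3 replicate 1 lay farthest out on it. In that library 35 genes stood at least 2-fold above both other day 3 libraries and 63 at least 2-fold below both, whereas the other 5 libraries had 8 to 26 such genes above and 23 to 36 below. Where leaving it out moves the fold of a named gene by over 1.5 times, both values are given. The gene elav, which marks all neurons, averaged 778 normalized counts at day 15 and 809 at day 3 (adjusted p = 0.753, limma). The male-specific RNA lncRNA:roX1 stood at 6066, 6289 and 6139 at day 15 and 6957, 7117 and 7240.0 at day 3, as the label male requires. The clock genes were spread widely within each age: timeless (tim) ran between 348 and 983 at day 15 and between 1172 and 3687 at day 3 (adjusted p = 0.0505, limma), and period (per) between 83.1 and 282 at day 15 and between 297 and 574 at day 3 (adjusted p = 0.106). Neither clock gene overlapped between the ages, nor did 32.6% of all genes tested. The labels do not state the hour of collection. The part of the daily cycle in the results was not tested. The gene foxo itself had 372, 400.0 and 419 normalized counts at day 15, against 365, 396 and 411 at day 3, a log2 difference of 0.02 ± 0.08 (SE; adjusted p = 0.872, limma).

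Of the 8921 genes, 1193 (13.4%) differed between the ages at a Benjamini-Hochberg adjusted p under 0.05 in limma, a linear model fitted across all genes to log2 of the normalized count plus 1. Of these genes, 531 (5.95%) were higher at day 15 and 662 (7.42%) lower. Most of these changes were small: the median log2 change was 0.46 among the higher genes and −0.45 among the lower ones, against 0.00 over all genes tested. A change of at least 2-fold was reached by 67 higher and 75 lower genes, and one of at least 4-fold by 9 higher and 13 lower genes. The 3 libraries of day 15 lay wholly above those of day 3 for 15.6% of genes and wholly below them for 17%. Without day 3 replicate 1, 288 genes were called higher (3.23%) and 336 lower (3.77%), and 596 of the 1193 calls were kept, none with the other sign. Day 15 replicate 1 mattered as much: without it 252 genes were called higher and 368 lower. Many of the list counts below therefore carry the range found when each of the 6 libraries was left out in turn, and the named calls that were lost in this way, or that DESeq2 or edgeR did not make, are given by paragraph. The gene lists below, which cover muscle, energy, nerve, eye, cuticle, immunity and other functions, held 1190 of the genes tested, of which 151 were higher and 209 lower. The remaining 380 higher and 453 lower genes belonged to none of them.

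**Figure D1:**
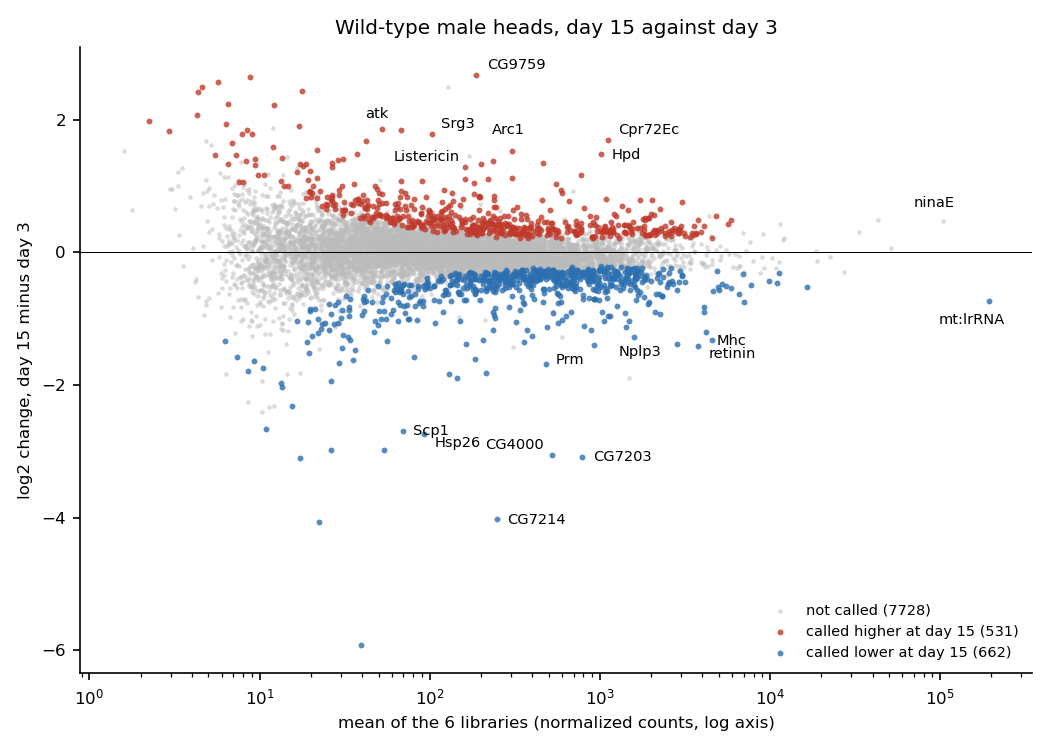
Each point is 1 of the 8921 genes, placed by its mean over the 6 libraries in normalized counts (log axis) and by its log2 change, day 15 minus day 3. The 531 higher genes (red) lie mostly within 1 log2 unit of 0, and the genes farthest from 0 among the lower ones (blue) include CG7214, CG7203 and CG4000.

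Among the genes named from no list the largest changes were losses. Genes of no list named for a large change were taken only where the day 15 and day 3 libraries did not overlap. Their lack of overlap, in higher and lower genes alike, was thus set by the choice. Over all genes tested, 32.6% did not overlap. CG7214 (FBgn0031940; chromosome 2L, 7743682 to 7744839, minus strand, dm6) had 3.82, 3.14 and 5.85 normalized counts at day 15, against 1436, 18.01 and 20.6 at day 3. CG7203 (chromosome 2L, 7752170 to 7753186), which lies close by on the same strand, had 92.6, 71.2 and 79.4 at day 15, against 3906, 320.2 and 260.2 at day 3. CG4000 (chromosome 3R, 20676224 to 20677351) had 91.7, 81.7 and 92.7 at day 15, against 1969, 469 and 445 at day 3. In all 3 genes every day 15 library lay below every day 3 library, as the choice required. Day 3 replicate 1 lay far above the other day 3 libraries. The log2 changes were −4.03 ± 1.08 (SE; adjusted p = 0.0202), −3.08 ± 0.64 (adjusted p = 0.0044) and −3.06 ± 0.36 (adjusted p = 3.64e-05, all limma). Without day 3 replicate 1 they were −1.98, −1.83 and −2.35, and all 3 were still called. The call of CG7214 was lost without day 15 replicate 1 or day 15 replicate 2, and DESeq2 gives CG7214 and CG7203 no adjusted p. CG13796, a gene on the other side of CG7214 that was chosen after its values were seen, was called in the opposite direction, with 67.8, 64.9 and 61.8 at day 15 and 21.98, 42.02 and 43.4 at day 3 (log2 change 0.90, adjusted p = 0.00694, limma). A gene of lower level, CG11458, was also singled out after its values were seen: no read of it was found at day 15, against 166, 32.02 and 39.04 normalized counts at day 3. A count of 0 allows up to 3 reads in a library.

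Scp1, a sarcoplasmic calcium-binding protein, fell with less dependence on one library. It had 17.2, 16.8 and 19.2 at day 15, against 149, 105 and 108 at day 3, a 6.44-fold lower level (log2 change −2.69 ± 0.21, adjusted p = 2.12e-06, limma). The noncoding RNA lncRNA:alphagamma-element:CR32865, which belongs to the repeats of the heat shock locus 87C and whose copies share reads, had 11.5, 12.6 and 7.52 at day 15, against 125, 122 and 44.5 at day 3 (log2 change −2.98, adjusted p = 0.000365). The gene phu had 47.7, 30.4 and 130.3 at day 15, against 250.4, 187 and 218 at day 3 (log2 change −1.90, adjusted p = 0.00811). None of these groups of libraries overlapped, as the choice required. The day 15 libraries of phu were spread widely, with replicate 3 the highest, and DESeq2 did not call it.

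Several further losses concerned secreted and membrane proteins. Loxl2, a lysyl oxidase-like enzyme that cross-links extracellular matrix, had 73.5, 63.9 and 68.5 at day 15, against 182, 142 and 115 at day 3 (log2 change −1.06 ± 0.17, adjusted p = 0.000724, limma). Swim, a secreted partner of the signal Wingless, had 233, 239.8 and 222 at day 15, against 730.4, 527 and 451 at day 3 (log2 change −1.27, adjusted p = 2.24e-05). The tetraspanin TM4SF had 659.8, 682 and 749 at day 15, against 1597, 1364 and 1330.5 at day 3 (log2 change −1.03, adjusted p = 7.63e-06). Each was lower in all 3 day 15 libraries than in any day 3 library, as the choice required. The ubiquitin ligase goliath (gol) fell by 1.16 on the log2 scale, and the mitochondrial phosphate carrier Mpcp1 by 1.36. Its relative Mpcp2 had 3029, 2899 and 2902 at day 15, against 5677, 5108 and 4814 at day 3 (log2 change −0.82, adjusted p = 2.32e-05). Further losses of genes named only by a CG number were those of CG9297 (log2 change −1.39, mean 502 at day 15 and 1344 at day 3), CG13360 (−1.32), CG7409 (−1.04), CG6329 (−0.89) and CG16820 (−1.03). Of the 18 lower genes named from no list, CG16820 (without day 3 replicate 1, log2 change −0.82) and CG7214 were the ones whose call depended on 1 library.

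Among the genes named from no list the largest gain was that of CG9759 (FBgn0038160; chromosome 3R, 13607078 to 13609246, minus strand). It had 337, 309 and 328 normalized counts at day 15, against 36.6, 61.03 and 56.4 at day 3, a 6.36-fold higher level (log2 change 2.67 ± 0.18, adjusted p = 3.55e-07, limma). The artichoke gene (atk), for a leucine-rich-repeat protein of the extracellular matrix, had 85.9, 92.2 and 66.8 at day 15, against 17.1, 16.01 and 35.8 at day 3 (log2 change 1.87, adjusted p = 0.000373). Both genes lay higher in every day 15 library than in any day 3 library, as the choice required, and CG9759 hardly varied within day 15.

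Genes known from immune and neuronal work were among the other gains. Srg3, a gene that STING signalling controls, had 186, 121 and 169 at day 15, against 25.6, 47.02 and 72.6 at day 3 (log2 change 1.79 ± 0.25, adjusted p = 0.000229, limma). Listericin, an antibacterial protein, had 373, 324 and 329 at day 15, against 150.2, 124 and 120.4 at day 3 (log2 change 1.38, adjusted p = 6.8e-05). Arc1, which forms virus-like capsids from a retrotransposon-derived Gag protein and carries RNA between neurons and muscle, had 564, 320.5 and 489.6 at day 15, against 150.2, 145 and 165 at day 3 (log2 change 1.54, adjusted p = 2.24e-05). In each of the 3 genes the lowest day 15 library lay above the highest day 3 library, as the choice required. The inositol phosphate kinase Ipk1 had 221, 247 and 222 at day 15, against 79.4, 99.1 and 104 at day 3 (log2 change 1.29, adjusted p = 7.63e-06). The gene pinta, for a retinoid-binding protein of retinal pigment cells, had 277, 299.5 and 322 at day 15, against 127, 176 and 118 at day 3 (log2 change 1.11, adjusted p = 8.87e-05). Further gains were those of CG5966 (1.35 on the log2 scale), CG34227 (1.17), CG10184 (1.11), Phk-3 (1.08), CG7997 (1.04), CG11893 (0.94) and the neprilysin-like gene Nepl14 (0.93). All 20 higher genes named from no list were called whichever of the 6 libraries was left out.

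**Figure D2:**
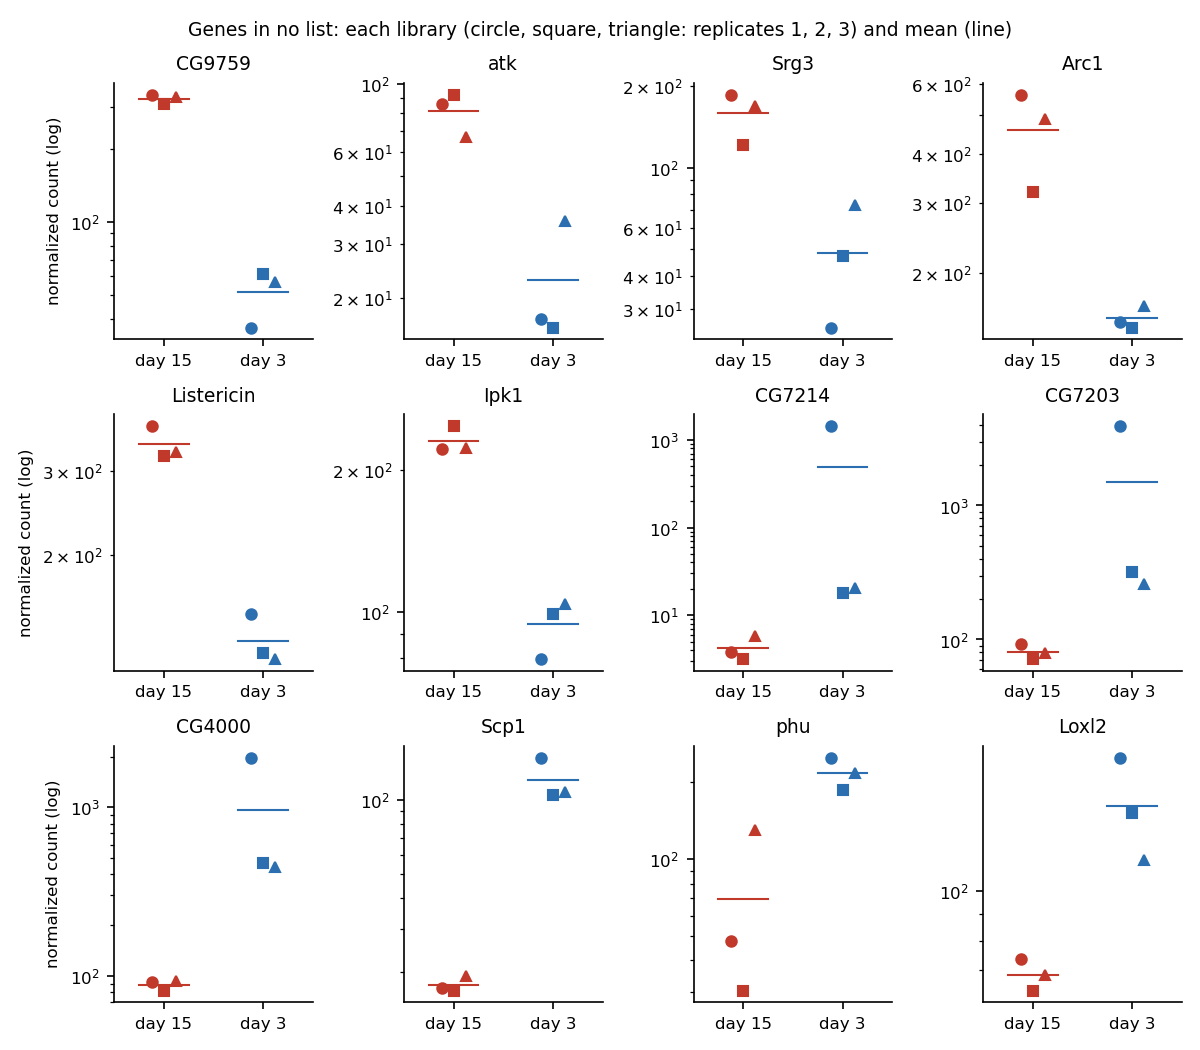
Normalized counts (log axes) of 12 genes of no list in each library, with day 15 in red on the left and day 3 in blue on the right of each panel; lines are means of 3 libraries. The day 15 and day 3 libraries do not overlap in any panel, which was a condition for choosing these genes. Day 3 replicate 1 (circle) stands far above replicates 2 and 3 for CG7214, CG7203 and CG4000.

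Among genes of no list with a mean of at least 500, those with the smallest adjusted p were chosen as well. CG17646 averaged 829 ± 99.6 normalized counts at day 15 and 479.5 ± 12.4 at day 3 (adjusted p = 3.64e-05 in limma's fit across all genes; ± is the SD over 3 libraries). The noncoding RNA lncRNA:noe averaged 2560.3 ± 46.5 at day 15 and 1493 ± 234 at day 3, and Tep4, a complement-like thioester protein, 1667 ± 149.8 at day 15 and 1026 ± 134 at day 3. CG10433 (log2 change 0.64) and CG9686 (0.55) also rose. CG9686 lies on X beside CG1468, CG9689 and CG9691, which were looked up afterwards and were called higher too, by 0.37, 0.53 and 0.32 on the log2 scale. CCT5, a subunit of the chaperonin ring that folds actin and tubulin, was among the 15 largest gains and had 319, 217 and 207 at day 15, against 101, 123 and 130.1 at day 3 (log2 change 1.04, adjusted p = 8.87e-05). Looked up after that, 5 of the 7 CCT subunits tested were called higher and none lower, where 5.95% of all genes tested were higher. CCT2 rose by 0.68 on the log2 scale, CCT1 by 0.54, CCT6 by 0.42 and CCT7 by 0.39. Day 15 replicate 1 was the highest day 15 library for all 7 subunits. The calls of CCT5 and CCT2 held whichever library was left out, and for CCT1, CCT6 and CCT7 this is not reported here. Leaving out 1 library ended the call of CG1468 and CG9691 (any of 5 libraries). Neither DESeq2 nor edgeR called CG1468.

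Muscle had the largest share of lower members of all the lists tested. Of 25 sarcomere genes tested, 24 were lower at day 15 and none higher, and the median log2 change was −0.91, against 0.00 over all genes. Paramyosin (Prm), the core of thick filaments, had 179.5, 226 and 259.8 at day 15, against 1069, 562 and 578 at day 3 (log2 change −1.68 ± 0.18, adjusted p = 2.24e-05, limma). The calcium pump SERCA had 2421, 2639 and 2638 at day 15, against 8668, 5604 and 5374 at day 3 (log2 change −1.32, adjusted p = 9.23e-06), and myosin light chain Mlc2 had 798, 910.0 and 969 at day 15, against 3309, 1791 and 1689 at day 3 (log2 change −1.28, adjusted p = 0.000108). Every day 15 library lay below every day 3 library in all 3 genes. Summed over the list, the libraries held 15289, 16749 and 17306 normalized counts at day 15, against 42401, 28889.9 and 28703 at day 3, so that day 3 replicate 1 was the highest. The number of lower members was 22 to 24 with 1 library left out, lowest without day 3 replicate 1 or day 15 replicate 2, and the median without day 3 replicate 1 was −0.77. In whole heads, fewer muscle cells and less RNA per muscle cell cannot be told apart.

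Genes of mitochondrial energy supply were lower beside muscle, by less. Of 67 nuclear genes of the respiratory chain and ATP synthase, 54 were lower and none higher, with a median of −0.38. Over all genes tested, 7.42% were lower and 5.95% higher. UQCR-Q of complex III had 453, 423 and 452 at day 15, against 837, 626 and 614 at day 3 (log2 change −0.63 ± 0.10, adjusted p = 0.0007, limma), and the ATP synthase subunit ATPsyngamma had 869.9, 804 and 894 at day 15, against 1480.2, 1265 and 1152 at day 3 (log2 change −0.59, adjusted p = 0.000368). The largest change in the list was that of COX7AL2 (−1.03). The number of lower members was 29 to 53 with 1 library left out, lowest without day 3 replicate 1, where the median was −0.31. Of 17 genes of the TCA cycle 9 were lower and 1 higher: Idh3a fell by 0.68, the citrate synthase kdn by 0.63 and the pyruvate dehydrogenase subunit Pdhb by 0.56 on the log2 scale. Of 18 glycolysis and glycogen genes 5 were lower and 1 higher, led by glycogen phosphorylase (Glyp, −0.63), Gapdh1 (−0.52) and glycogen synthase (Glys, −0.47). Among 70 mitochondrial ribosomal proteins mRpS9 alone was called, as lower, and the median was −0.08. Muscle genes were lower in the same libraries, and their part in these lists was not tested. With 1 library left out the call was lost for COX7AL2 (any of 4 libraries).

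The mitochondrial genome was examined after its ribosomal RNA had come up among the named genes. The small ribosomal RNA mt:srRNA had 427, 399 and 470.4 at day 15, against 811, 878 and 824 at day 3 (log2 change −0.96 ± 0.10, adjusted p = 1.76e-05, limma). The large one, mt:lrRNA, took the most reads of any gene, with 141454, 138836 and 154787 at day 15, against 263514, 233982 and 224039 at day 3 (log2 change −0.73, adjusted p = 0.00342). It took 4.10% to 4.52% of the reads at day 15 and 6.33% to 7.19% at day 3. None of the 13 mitochondrial messenger RNAs was called by limma (3 at an unadjusted p under 0.05, 1 called by DESeq2 and 1 by edgeR).

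**Figure D3:**
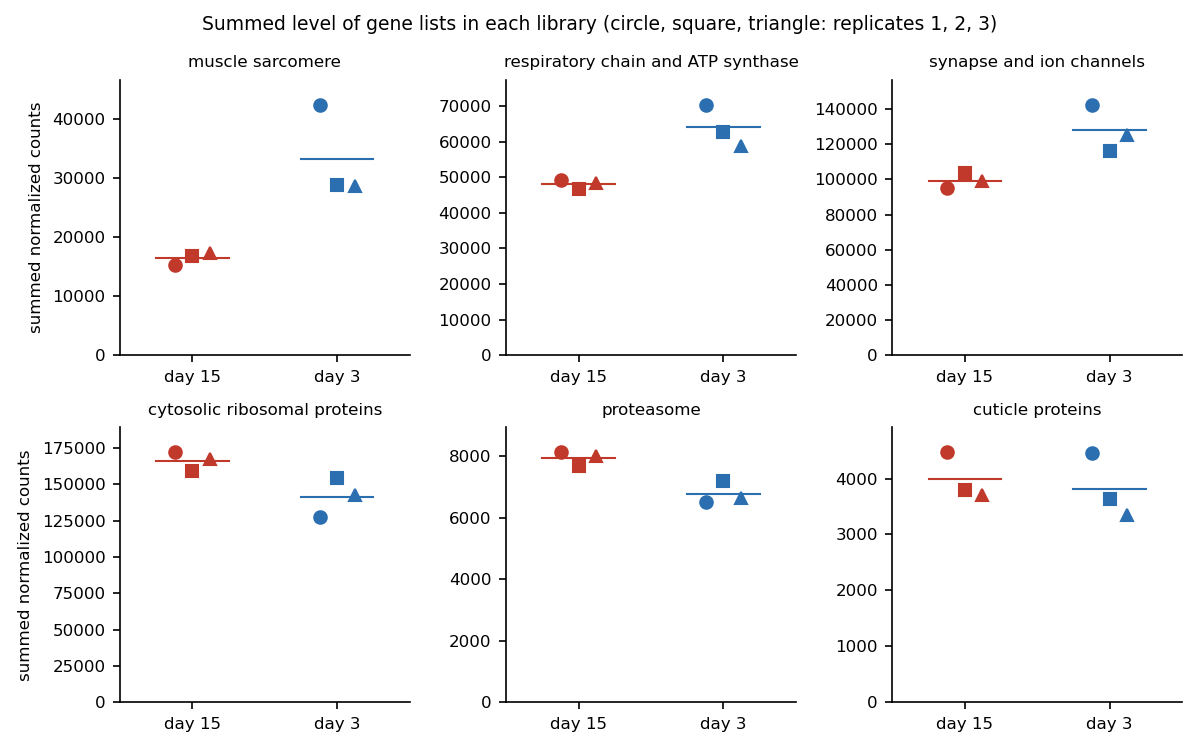
Summed normalized counts of the members of 6 gene lists in each library, with day 15 in red on the left and day 3 in blue on the right; lines are means of 3 libraries and axes start at 0. Muscle, respiratory chain and synapse sums lie lower at day 15 in every library, ribosomal protein and proteasome sums lie higher, and cuticle protein sums overlap.

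The synaptic genes that changed were lower, whereas most neuropeptide genes that changed were higher. Of 60 synaptic and ion channel genes 33 were lower and none higher, with a median of −0.32. The lower ones numbered 20 to 39 with 1 library left out, lowest without day 15 replicate 1. Gad1, which makes the transmitter GABA, had 1344, 1525 and 1487 at day 15, against 2822, 2190.1 and 2312 at day 3 (log2 change −0.74 ± 0.11, adjusted p = 0.000269, limma). The sodium pump subunits nrv3 (−0.63) and nrv2 (−0.59) fell too. Of 94 wiring and neural development genes 13 (13.8%) were lower and none higher, where 7.42% of all genes tested were lower. The largest losses were those of the cell surface proteins beat-Vc (−0.93), DIP-theta (−0.73) and beat-VI (−0.62). The number of lower wiring genes was 3 to 16 with 1 library left out. It was lowest without day 3 replicate 1, where 3.77% of all genes were lower, so the list did not then stand above the background. Of 16 subunits of the vacuolar proton pump, which fills synaptic vesicles and acidifies lysosomes, 6 were lower and none higher, among them Vha68-1 (−0.56), Vha55 (−0.38) and Vha14-1 (−0.35). Their number was 3 to 5 with 1 library left out, lowest without day 15 replicate 1 or day 15 replicate 2. The glial list had 3 lower and 1 higher of 14, with the gap junction protein Inx2 (−0.40) and the glutamate transporter Eaat1 (−0.40) lower and wrapper (0.45) higher. The call did not survive the loss of 1 library for beat-Vc (day 3 replicate 1 or day 15 replicate 3) and Vha14-1 (day 3 replicate 2 or day 15 replicate 1).

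Of 28 neuropeptide genes and their processing enzymes, 9 were higher and 2 lower, where 5.95% of all genes tested were higher and 7.42% lower. The higher ones numbered 7 to 10 with 1 library left out, lowest without day 3 replicate 1 or day 15 replicate 3. Hugin (Hug), a peptide of feeding control, had 264, 246 and 248 at day 15, against 123, 142 and 160.5 at day 3 (log2 change 0.83 ± 0.09, adjusted p = 2.32e-05, limma). Orcokinin had 271, 301 and 327 at day 15, against 139, 194 and 189.8 at day 3 (log2 change 0.79, adjusted p = 0.000194). Nplp3, a neuropeptide-like precursor, went the other way, with 1537, 1355 and 1485 at day 15, against 7249, 2938 and 2541 at day 3 (log2 change −1.38, adjusted p = 0.00346). None of these libraries overlapped between the ages. Others called higher, listed after their values were seen, were Dsk (0.69), NPF (0.62), Crz (0.61), Pdf (0.61), Mip (0.45), Ms (0.40) and the processing enzyme Pal2 (0.33). Dsk is overlapped by CR33294, which was called higher too, and the counting is not stated to use strand, so their reads cannot be told apart. A single library left out ended the call of Mip (any of 5 libraries) and Ms (day 3 replicate 1 or day 15 replicate 3). Neither DESeq2 nor edgeR called Mip.

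Most eye genes that changed were lower, while some rhodopsins were higher. Of 37 phototransduction and eye genes 12 (32.4%) were lower and 3 (8.11%) higher, with a median of −0.21. Over all genes tested, 7.42% were lower and 5.95% higher. The lower members of this list numbered 7 to 12 with 1 library left out, lowest without day 3 replicate 1. Retinin, a protein of the corneal lens, had 2059.7, 1879.8 and 2177 at day 15, against 6992, 5077 and 4440.3 at day 3 (log2 change −1.41 ± 0.16, adjusted p = 2.37e-05, limma). Drosocrystallin (Crys), another lens protein, had 4.77, 2.09 and 2.51 at day 15, against 118, 13.01 and 17.3 at day 3, with a log2 change of −2.98 with day 3 replicate 1 and −2.01 without it. Eyes shut (eys), which keeps the light-sensing membranes of a unit apart, had 749.6, 798 and 781 at day 15, against 1723, 1341 and 1489 at day 3 (log2 change −0.96, adjusted p = 1.14e-05). The 3 members called higher, all rhodopsins, were Rh6 (0.52), Rh3 (0.48) and Rh2 (0.45), named after their values were seen. The main rhodopsin ninaE lay higher in all 3 day 15 libraries, at 125146, 116639 and 119727, against 74235, 94098 and 93450.0 at day 3, but did not pass (log2 difference 0.47, adjusted p = 0.109). Of 19 eye pigment genes 3 (15.8%) were lower and 3 (15.8%) higher, and no test set these shares apart from those of all genes. The higher ones numbered 1 to 5 with 1 library left out, lowest without day 3 replicate 1 or day 15 replicate 3. Punch (Pu) and purple (pr), which make pteridines, fell by 0.89 and 0.52 on the log2 scale, and the pigment transporter brown (bw) rose by 0.50. Leaving out 1 library ended the call of Crys (day 3 replicate 1).

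Most cuticle genes that changed were lower, and a lens protein was the main exception. Of 31 tested, 11 were lower and 3 higher, where 7.42% of all genes tested were lower and 5.95% higher. The lower ones numbered 5 to 14 with 1 library left out, lowest without day 3 replicate 1. Cpr49Ae had 103, 84.8 and 92.7 at day 15, against 403, 303 and 293 at day 3 (log2 change −1.81 ± 0.15, adjusted p = 2.42e-06, limma), and Vajk2 had 12.4, 12.6 and 10.03 at day 15, against 90.4, 23.01 and 28.2 at day 3 (log2 change −1.67, and −1.07 with no call without day 3 replicate 1). Cpr72Ec, which is a component of the corneal lens, rose instead, with 2162, 1616 and 1334 at day 15, against 513, 632 and 417 at day 3 (log2 change 1.70, adjusted p = 0.00683). All 3 day 15 libraries of Cpr72Ec lay above every day 3 library, the reverse of the lens proteins retinin and Crys. Among 15 tanning genes 3 were lower and none higher, namely Pu, yellow-h (−0.71) and ebony (e, −0.44). Type IV collagen, the sheet-forming protein of basement membranes that blood cells and fat body make, fell: Col4a1 had 785, 741 and 715 at day 15, against 1911, 1248 and 1264 at day 3 (log2 change −0.95, adjusted p = 9.63e-05), and its partner vkg changed by −0.68. In the list of 18 blood cell genes that holds them, 6 others were higher and 1 other lower. The higher ones numbered 2 to 4 with 1 library left out, lowest without day 15 replicate 1. The higher ones included lz (0.64), a factor of crystal cells. With 1 library left out the call was lost for e and Vajk2 (any of 5 libraries) and lz (day 15 replicate 1).

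The ribosomal protein and proteasome genes that changed were higher, by small steps. In the list of heat shock and cytosolic chaperones, most genes that changed were lower. Of 76 cytosolic ribosomal proteins 38 were higher and none lower, with a median of 0.26, led by RpL35 (0.50), RpS21 (0.48) and RpS27 (0.42). The count was 11 to 50 with 1 library left out, lowest without day 3 replicate 1 or day 15 replicate 1. Of the 6 libraries, day 3 replicate 1 had the lowest sum of the list. Of 33 proteasome subunits 6 were higher and none lower, led by Prosalpha3 (0.45), Rpn2 (0.38) and Rpt3 (0.32), and the higher ones numbered 2 to 9 with 1 library left out, lowest without day 3 replicate 1, day 15 replicate 1 or day 15 replicate 3. Of 19 heat shock and cytosolic chaperone genes 7 were lower and 1 higher. The CCT subunits named above, whose calls were all higher, are not in this list. The sums of the list overlapped between the ages, with 18534, 13813 and 13728 normalized counts at day 15, against 12177, 14455.5 and 13488 at day 3. Hsp26 had 22.9, 17.8 and 29.2 at day 15, against 199, 174 and 115 at day 3 (log2 change −2.74 ± 0.35, adjusted p = 8.87e-05, limma), and Hsp68 had 63.98, 60.7 and 41.8 at day 15, against 254, 228 and 131 at day 3 (log2 change −1.83, adjusted p = 0.0006). Hsp27 changed by −1.47, and the lower members numbered 3 to 7 with 1 library left out, lowest without day 3 replicate 1. Hsp67Bc, CG4461, Hsp26, Hsp23 and Hsp27 follow one another on 3L, a run picked out after the values were seen, and all 5 were called lower. The near-identical copies Hsp70Bb and Hsp70Bc, lower too and also named after their values were seen, share reads and are uncertain as single genes. Of 17 genes of protein folding in the endoplasmic reticulum 2 were higher, Xbp1 (0.31) and Sec61beta (0.47), with a median of 0.03. Of 23 autophagy and lysosome genes 3 were higher, cathD (0.53), ref(2)P (0.33) and CtsB (0.24), with a median of 0.04. Over all genes tested, 5.95% were higher and 7.42% lower. No test set the shares of the endoplasmic reticulum and autophagy lists apart from those of all genes. The call did not survive the loss of 1 library for Hsp70Bc (day 3 replicate 1), Hsp23 (any of 5 libraries), Hsp27 and Rpt3 (any of 3 libraries), Sec61beta (day 15 replicate 1), CtsB (any of 4 libraries), Hsp67Bc (day 3 replicate 1 or day 15 replicate 1) and CG4461 (day 3 replicate 1 or day 15 replicate 2). No call was made by DESeq2 for Hsp23, Rpt3 or CtsB. For Hsp70Bc DESeq2 gives no adjusted p.

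In amino acid metabolism 6 of 20 genes were higher and 2 lower, where 5.95% of all genes tested were higher and 7.42% lower. Enzymes that degrade tyrosine were among the higher ones. Hpd, which makes homogentisate, had 1423, 1689 and 1377 at day 15, against 520.3, 610.3 and 479 at day 3 (log2 change 1.48 ± 0.12, adjusted p = 2.42e-06, limma). The next enzyme, homogentisate oxidase (hgo), had 308, 292 and 259 at day 15, against 94.04, 132 and 114 at day 3 (log2 change 1.34, adjusted p = 3.64e-05). The first and the last enzyme of the route, Tat (0.79) and Faa (0.50), looked up afterwards, were called higher as well, so that its 4 listed enzymes were all higher. Outside this route the sarcosine dehydrogenase Sardh rose by 1.00. A single library left out ended the call of Faa (any of 5 libraries). Neither DESeq2 nor edgeR called Faa.

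The glutathione S-transferases and cytochrome P450 genes that changed were more often higher than lower. Over all genes tested, 5.95% were higher and 7.42% lower. Of 30 glutathione S-transferases 10 were higher and 1 lower, with a median of 0.27, led by GstZ2 (0.86), GstE8 (0.84) and GstE9 (0.64) among those with a mean of at least 20. The higher ones numbered 4 to 11 with 1 library left out, lowest without day 15 replicate 1. Members of the GstD and GstE clusters resemble one another, and their reads may be shared. Of 67 cytochrome P450 genes 9 were higher and 2 lower. Cyp4e3 had 80.2, 124 and 95.2 at day 15, against 14.7, 77.04 and 16.3 at day 3 (log2 change 1.84, adjusted p = 0.0157, limma). Cyp18a1, which inactivates the moulting hormone ecdysone (−0.91), and Cyp4c3 (−1.07) fell. Of 31 lipid genes 8 were higher and none lower, led by Lip2 (0.94), Lpin (0.45) and Mtp (0.44), and the higher ones numbered 2 to 8 with 1 library left out, lowest without day 15 replicate 1. Lip2 overlaps CG6415, also called higher. Of 18 UDP-glycosyltransferases 2 (11.1%) were higher and 1 (5.56%) lower, the last being Ugt301D1 (−1.16). No test set these shares apart from those of all genes. Of 6 imaginal disc growth factors, chitinase-like secreted proteins, 4 were higher, Idgf1 by 0.64, and the higher ones numbered 1 to 4 with 1 library left out, lowest without day 3 replicate 1, day 3 replicate 3 or day 15 replicate 1. Of 10 metal genes 2 were higher, among them metallothionein MtnA (0.66). Leaving out 1 library ended the call of MtnA, Cyp4c3, Cyp4e3 and Mtp (any of 3 libraries), Lip2 and GstE9 (day 15 replicate 1), CG6415 (any of 5 libraries) and GstE8 (any of 4 libraries). Neither DESeq2 nor edgeR called Cyp4e3 or GstE8. DESeq2 alone of the tools did not call CG6415.

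A few immune genes were called higher, as were 5.95% of all genes tested. Of 35 recognition and signalling genes 6 (17.1%) were higher and none lower. The higher ones numbered 4 to 7 with 1 library left out, lowest without day 15 replicate 1, day 15 replicate 2 or day 15 replicate 3. PGRP-SB1, a peptidoglycan-binding protein, had 571, 364 and 318 at day 15, against 150.2, 233 and 180.0 at day 3 (log2 change 1.13 ± 0.23, adjusted p = 0.00396, limma), and PGRP-SD had 126, 73.3 and 81.04 at day 15, against 41.5, 40.02 and 45.5 at day 3 (log2 change 1.08, adjusted p = 0.0014). Of 28 antimicrobial and other humoral peptides 3 (10.7%) were higher and none lower, DptA (1.68), AttB (1.48) and AttA (1.85). No test set this share apart from that of all genes. The higher ones numbered 0 to 5 with 1 library left out, lowest without day 3 replicate 2 or day 15 replicate 1. AttA and AttB are near-identical copies, and AttA was named after its values were seen. With 1 library left out the call was lost for DptA and AttA (any of 3 libraries) and AttB (day 3 replicate 2 or day 15 replicate 1). Neither DESeq2 nor edgeR called DptA, AttA or AttB. Listericin, the antibacterial protein named above, is not in this list. It was called higher by both tools and whichever of the 6 libraries was left out. The Turandot stress peptides ran against these gains, with 3 of 4 lower: TotM (−1.38), TotC (−1.12) and TotA (−0.90). TotA had 3089, 2658 and 2787 at day 15, against 5177, 5259.7 and 5515 at day 3, and its libraries did not overlap.

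Hormone and growth signals were read against the 13.4% of all genes that were called. In the insulin and TOR list 2 of 22 were lower and 1 higher, a share near that background. They were the kinase Pdk1 (−0.36), the insulin-like peptide Ilp3 (−2.03, mean 4.73 at day 15 and 22.3 at day 3, singled out after its values were seen) and the PGC-1 homologue srl (0.53). In the juvenile hormone and ecdysone list 4 of 29 were lower and 2 higher, among them Jhedup (−0.62) and Hr78 (0.40). The lower ones numbered 1 to 4 with 1 library left out, lowest without any 1 of 4 libraries, and the higher ones 1 to 4. Of 19 DNA damage and cell death genes 5 were higher and none lower, and the higher ones numbered 2 to 3 with 1 library left out, lowest without day 3 replicate 3, day 15 replicate 2 or day 15 replicate 3. Xrp1, a stress-induced transcription factor, had 2346, 2496 and 2650.2 at day 15, against 1651, 1689.9 and 1718 at day 3 (log2 change 0.56 ± 0.08, adjusted p = 0.000273, limma), and both Ku subunits, which bind broken DNA ends, were higher, Ku80 by 0.71 and Irbp by 0.53. Of 25 odorant binding proteins 4 were higher and 3 lower, with Obp99b (0.95) and Obp83a (−0.71) as examples, and with 1 library left out 2 to 4 were higher and 1 to 2 lower. Of 25 smell and taste receptors 2 were higher, Ir75b (1.12) and Ir75a (0.87), and 1 lower, Gr39a (−0.78). Of 15 clock genes 1 was lower, Pdp1 (−0.65). The call did not survive the loss of 1 library for Irbp, Pdp1 and Jhedup (any of 5 libraries), Pdk1, srl, Ku80 and Gr39a (any of 4 libraries), Ir75a and Obp99b (any of 3 libraries) and Ir75b (day 3 replicate 1 or day 15 replicate 2). Neither DESeq2 nor edgeR called Irbp or srl. No call was made by DESeq2 for Pdp1, Jhedup, Obp99b, Ku80 or Gr39a. For Ilp3 DESeq2 gives no adjusted p. The 17 cell cycle genes held no call in limma (4 at an unadjusted p under 0.05, 0 called by DESeq2 and 0 by edgeR), and neither did the 7 dosage compensation genes (2 at an unadjusted p under 0.05, 1 called by DESeq2 and 0 by edgeR), against 13.4% of all genes tested.

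**Figure D4:**
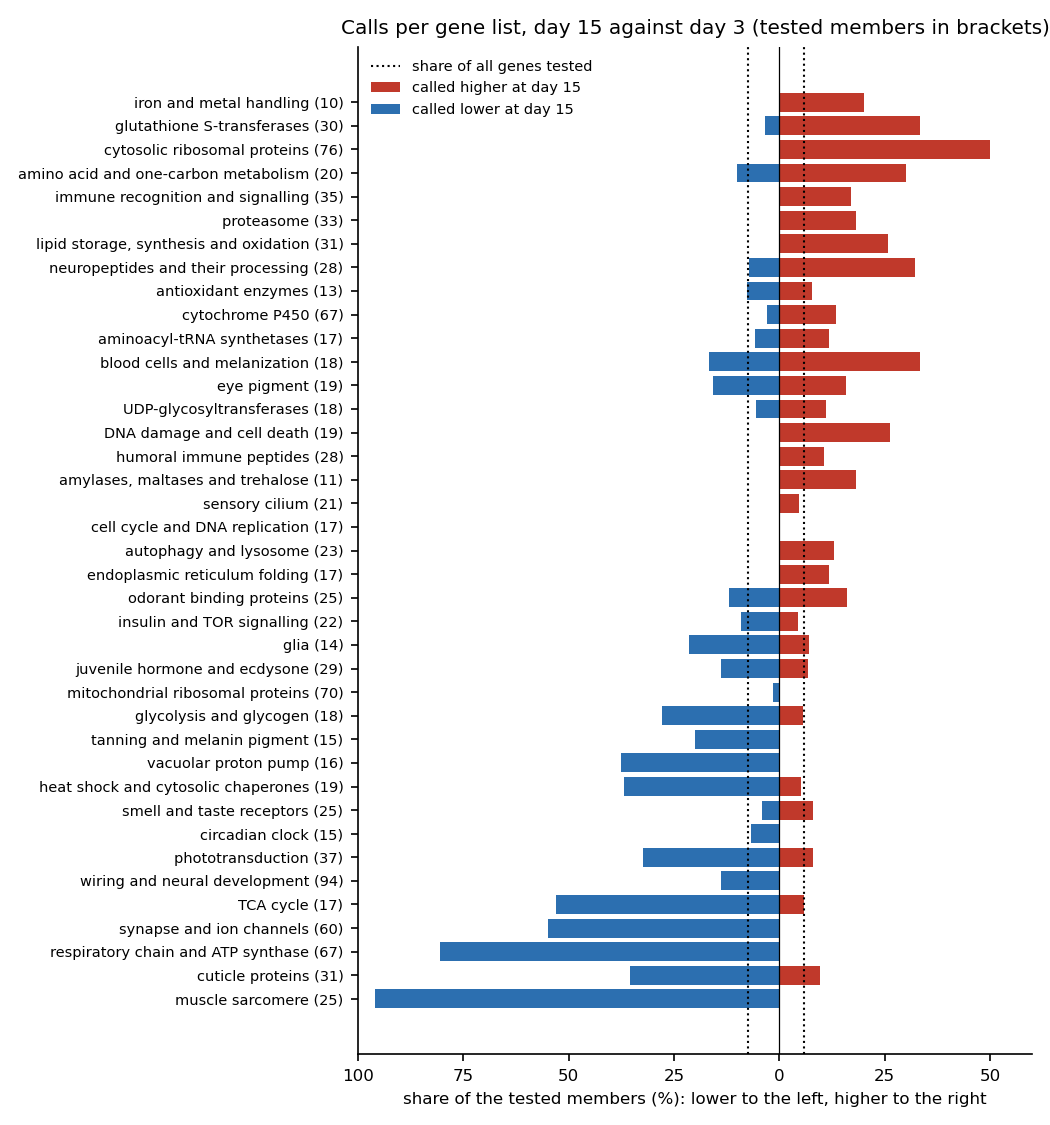
Share of the tested members of each gene list with at least 10 tested genes that was called higher at day 15 (red, to the right) or lower (blue, to the left), in percent, ordered by the list's median log2 change. Dotted lines mark the shares over all genes tested, 5.95% higher and 7.42% lower; muscle and respiratory chain genes reach farthest to the left and cytosolic ribosomal proteins farthest to the right.

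Markers of other tissues were looked at beside these lists. Of 14 genes of gut digestive enzymes 3 were tested and none was called by limma (0 at an unadjusted p under 0.05, 0 called by DESeq2 and 0 by edgeR). The list's sum lay between 8.59 and 91.9 normalized counts at day 15 and between 64.7 and 168 at day 3, and between 0 and 9 of the 14 were at 0 at day 15 and between 0 and 2 at day 3. Of 7 genes of the male reproductive tract EbpIII alone was called, higher at day 15 (7224, 6456 and 6843, against 4565, 5275 and 4800.3 at day 3), and it made up most of the list's sum. Of 8 fat body and head-secreted genes 3 were higher, among them takeout (to, 0.56), and the higher ones numbered 0 to 2 with 1 library left out, lowest without day 3 replicate 1 or day 15 replicate 1. The 3 storage proteins of larva and pupa tested held no call in limma (2 at an unadjusted p under 0.05, 0 called by DESeq2 and 0 by edgeR). The remaining lists held 1 to 3 calls each, and no test set their shares apart from the 13.4% of all genes. Of 17 aminoacyl-tRNA synthetases 2 were higher and 1 lower, TyrRS (−0.40). Of 11 genes of amylases, maltases and trehalose 2 were higher, Treh (0.30) and Mal-B2 (0.35). Of 13 antioxidant enzymes Trxr1 (0.40) was higher and Sod2 (−0.25) lower, of 9 Methuselah receptors mthl10 (0.49) was higher, and of 21 ciliary genes Dhc62B (0.86) was higher. Some small counts fell to 0 with 1 library left out: the 2 higher aminoacyl-tRNA synthetases and the 2 higher smell and taste receptors without day 3 replicate 1, the 2 higher metal genes without day 3 replicate 1 or day 15 replicate 2, and the 2 higher UDP-glycosyltransferases without any 1 of 3 libraries. The 3 higher cuticle genes came down to 1 without day 15 replicate 1, the 2 higher genes of the endoplasmic reticulum to 1 without the same library, and the 2 lower cytochrome P450 genes to 1 without day 3 replicate 1 or day 3 replicate 2. The 2 lower neuropeptide genes and the 2 higher amylase and trehalose genes came down to 1 without any 1 of 3 libraries. A single library left out ended the call of Treh (any of 5 libraries), Sod2, Dhc62B and to (any of 3 libraries) and TyrRS (day 3 replicate 1 or day 15 replicate 1). DESeq2 alone of the tools did not call Sod2 or Dhc62B. The one not called by edgeR was Treh.

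Called genes were also described by where they lie and how long they are. On the small chromosome 4, 21 of 84 genes tested (25%) were lower and none higher, with a median log2 change of −0.14, whereas the lower share on the other chromosome arms ran between 6.50% and 8.21%. Exonic length had a median of 1898 bases among genes called higher, 2829 among genes called lower and 2230 over all genes tested, and 4174 on chromosome 4. Over 8756 genes with an annotated length, Spearman's rho between length and log2 change was −0.18. Genes are not independent replicates, and this is a description.

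The later ages were used to see which early changes were called again in a later step. The means of day 45 and day 30 hold none of the day 15 or day 3 libraries, but the model takes its spread from all 4 ages. The comparison gave few calls in limma, 25 higher (0.28%) and 12 lower (0.135%). These calls rest on few libraries: there were 3 higher and 0 lower without day 30 replicate 3, 3 and 2 without day 45 replicate 1, and 38 and 61 without day 45 replicate 3. The calls came to 21 in all without day 30 replicate 2 and to 24 without day 15 replicate 2 or day 15 replicate 3, against 37 with all libraries. Of the 531 genes higher at day 15, 16 were also higher at day 45 against day 30 and 2 were lower. Of the 662 genes lower at day 15, 2 were lower again, Cpr49Ag and Cpr11B, and none was higher. Of the 25 genes higher at day 45, 16 had thus already been called higher at day 15. CG9759 averaged 51.4, 325, 539 and 1068 normalized counts at days 3, 15, 30 and 45, and Arc1 153, 458, 695 and 1376. Listericin, PGRP-SB1 and PGRP-SD were in the same group of 16, with log2 changes of 1.32, 1.44 and 1.40 between days 30 and 45. MtnA and Cad89D were the 2 genes that reversed, with −0.86 and −1.43 in the later step. Other genes had later means near that of day 15: Ipk1 averaged 94.2, 230.0, 250.4 and 229, Scp1 121, 17.7, 18.6 and 14.1, and the myosin heavy chain gene Mhc 5914, 2533, 2668 and 2524 at the 4 ages. With so few later calls, a gene not called between days 30 and 45 is not shown to have stopped changing. Whether the early and late steps differ in size was not tested gene by gene.

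**Figure D5:**
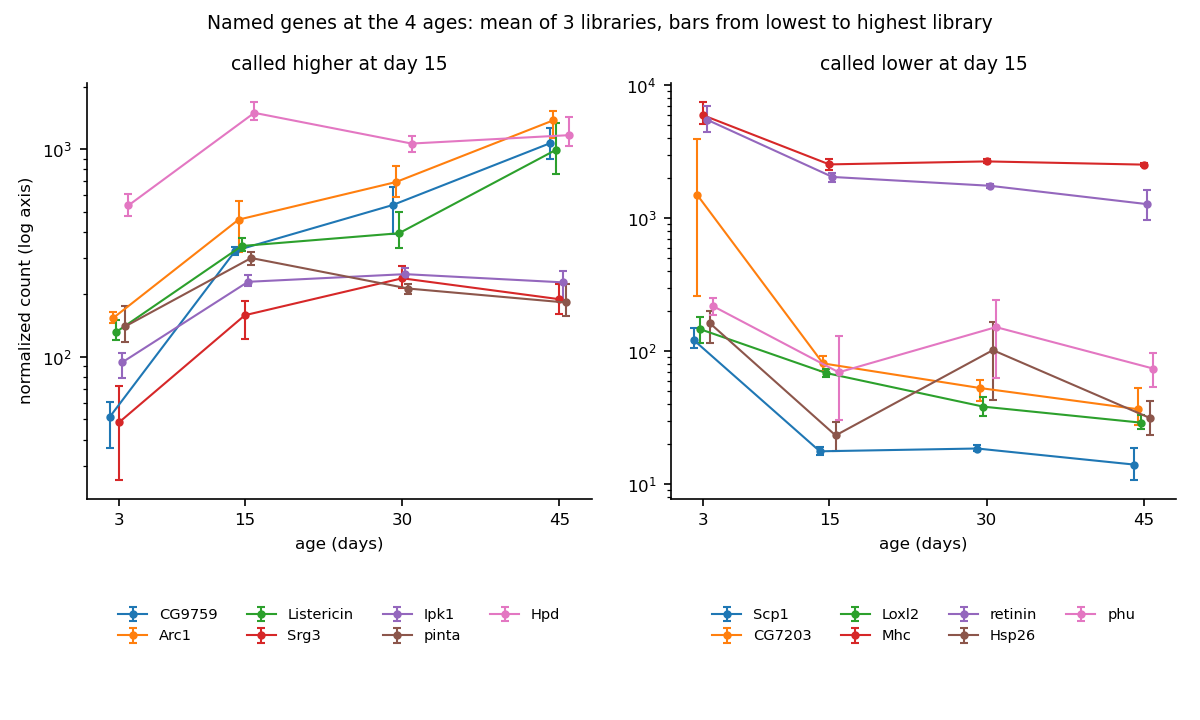
Mean normalized count (log axis) of 14 genes at days 3, 15, 30 and 45, with bars from the lowest to the highest of 3 libraries. Genes called higher at day 15 are on the left and genes called lower on the right; CG9759, Arc1 and Listericin go on to higher levels at day 45, whereas Ipk1, Scp1 and Mhc have day 45 means near those of day 15.

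The authors' deposited table of foxo mutant against wild-type females at day 3 comes from other flies and the other sex. Over all 8571 genes with an adjusted p, the authors' deposited table has 6.56% higher in the mutant and 7.28% lower. Among 501 of the genes that rose by day 15 in males, the authors' deposited table has 99 (19.8%) higher in the mutant and 69 (13.8%) lower. Among 629 of the genes that fell by day 15, the authors' deposited table has 37 (5.88%) higher in the mutant and 121 (19.2%) lower. Of the genes higher in the mutant in the authors' deposited table, 17.6% had risen and 6.58% had fallen by day 15, and of those lower in it 11.1% had risen and 19.4% had fallen. Single genes went both ways: the authors' deposited table gives CG11893 −2.36, CG5966 −1.43, Hpd −1.42, Cyp4e3 −1.24, Hug −0.86 and hgo −0.80 on the log2 scale in the mutant, all of them higher at day 15. For to the authors' deposited table gives 1.02 and for Phk-3 0.80. Among genes lower at day 15 the authors' deposited table gives −0.78 for Swim, −0.60 for Scp1 and 0.58 for Col4a1.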

How the data were processed

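Whole-head polyA RNA had been sequenced in 12 libraries of wild-type males, 3 each at days 3, 15, 30 and 45. STAR, HTSeq and DESeq were used with build dm6, per the submitters' processing notes, which give no versions. The male values are a signal, counts that the authors normalized by library, as deposited. Every deposited value lay within 0.001 of a whole multiple of the library's value of 1 read, so that 100% of values came out as whole reads. Depths are reads so recovered in genes of the table. At about 1 normalized count per read, genes near the filter rest on few reads. The females are known from the authors' deposited table alone, with log2 fold changes, a score the authors deposited as test statistic, and the authors' deposited p-values, and no value or depth per library.

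FlyBase identifiers were looked up in the Ensembl annotation BDGP6.54 (dm6 coordinates), which named 10701 and left 183 without a symbol. In limma 3.58.1 (R 4.3.3), log2 of the normalized count plus 1 was fitted in 1 model of all 4 ages, with trend. Adjusted p is Benjamini-Hochberg over 8921 genes, two-sided, with calls under 0.05. Fold changes are on that scale, which understates changes of low genes, and their error is the model's SE. Tested on simulated counts of 8906 genes, the comparison of day 15 with day 3 found 56.7% of 1.5-fold changes, 89.6% of 2-fold changes and 98.5% of 4-fold changes, and 6 of its 169 calls were false. The simulated libraries were independent, none stood apart, and fewer genes changed than were called in the real data. These shares therefore need not hold for the real libraries. Deviations of the same numbered libraries of different ages were weakly correlated, in both directions (−0.25 to 0.15). The numbers were therefore not treated as pairs, though a shared culture or collection is not excluded by this.

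The members, the gene lists and the rule for named genes were chosen with earlier results of these data known, and wrong matches of list patterns (Dsor1, Sgsh, Cp110, Cp190 and Srr) were removed after the values were seen. Named genes were, in no list, the 15 higher and 15 lower calls of largest change whose mean reached 50 and whose libraries stayed apart, and the 6 higher and 6 lower calls of smallest p with a mean of at least 500. From each list came up to 3 calls of largest change with a mean of at least 20, or the 2 most abundant members where none passed, and foxo was added. Others are said to be chosen after their values were seen, or were called members of a list. Reads were not stated to be counted by strand, so overlapping genes cannot be told apart. DESeq2 1.42.0 and edgeR 4.0.16 were run on the recovered reads as alternatives, beside other scalings, filters and pseudocounts and leaving out libraries. Promoter motifs were not analysed here.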

Additional observations from a re-analysis of the deposited data

How the results depend on the processing

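None of the 14 alternatives changed the sign of a gene called at day 15 against day 3. The counts depended most on single libraries: leaving out 1 replicate gave between 252 and 537 genes higher, between 336 and 667 lower and between 620 and 1204 in all, lowest without day 15 replicate 1 (252 higher and 368 lower, 620 in all, 603 of them also called with all libraries) or day 3 replicate 1 (288 higher and 336 lower). DESeq2 on the recovered reads called 322 higher and 521 lower. TMM scaling, other filters, a pseudocount of 10, edgeR and a fit of the 6 libraries alone kept within 1.5 times of the 531 higher and 662 lower genes, and so did the replicate block, with 509 higher and 636 lower, 1145 in all, where the replicate numbers were not found to pair libraries. Of the 148 named genes called, none reversed, and of 2195 results over alternatives for all 157 named genes 1991 kept their side of the threshold, 203 lost it and 1 passed it. Of those lost, 149 came from leaving out a library.

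For day 45 against day 30, with alternatives chosen after the data were seen, leaving out 1 library gave between 3 and 38 higher, between 0 and 61 lower and between 3 and 99 in all. DESeq2 called 44 higher and 20 lower, edgeR 42 higher, and both tools moved the total, to 64 and 56.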
